A study of Mus musculus with 6 samples.

Results

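The genes encoding the initiation and elongation factors of cytoplasmic protein synthesis were examined in the adrenal gland of mice with and without PACAP. The genes were chosen by symbol: every clone annotated with exactly 1 gene whose current mouse symbol starts with Eif or Eef and a digit was taken, except clones of Eef1a1. This gave 162 clones of 56 genes, out of 35762 clones and 11837 named genes on the array. A clone is a spotted cDNA, and it is named here by its gene and by its print block, the area of the slide printed by 1 pin, of which each slide had 48.

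Mice of 2 genotypes, both of a 129XC57BL6 F2 background, were compared: PACAP +/+ (wild type) and PACAP -/- (knockout, lacking the neuropeptide encoded by Adcyap1). Total RNA of the adrenal gland was hybridised to 6 spotted cDNA arrays with 2 colours. The wild-type RNA always carried the red dye Cy5, and the knockout RNA on the same slide always carried the green dye Cy3. The dyes were never exchanged, so a dye effect of a clone and an effect of genotype cannot be told apart. The labels number the arrays as repeats 1 to 6 and do not say whether they came from separate animals, whose age and sex they do not give, so a p-value here speaks of variation among 6 slides that could be technical repeats. According to its title, the series is about adrenal genes whose regulation needs PACAP.

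Translation starts when the initiation factor eIF2 brings the initiator tRNA to the small ribosomal subunit and eIF3 and eIF4 bring that subunit to the capped end of an mRNA. After the start codon has been found, eIF5 and eIF5B let the large subunit join, and eIF2B reloads eIF2 with GTP for the next round. During elongation eEF1 delivers aminoacyl-tRNA and eEF2 moves the ribosome along the mRNA. Many of these factors are encoded by mRNAs with a 5′ terminal oligopyrimidine (TOP) tract, through which the kinase mTOR controls how strongly they are translated.

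All ratios below are log2 of the knockout over the wild-type signal, so that a value of 0.84 stands for a 1.79-fold higher knockout signal. Each ratio is given after 2 normalizations of the same intensities, global loess (1 curve per array) and print-tip loess (1 curve per print block), because the mean ratio of a print block ran from -0.59 to 0.50 with global loess. An error is the standard error from limma over the arrays measured, 6 unless stated, and a clone passed the test at an adjusted p under 0.05 (limma, Benjamini-Hochberg over 28619 clones). The background had already been subtracted from the intensities. The median ratio of this net red signal to its local background was 4.57, 1.32, 2.00, 1.11, 2.02 and 1.59 on arrays 1 to 6. By this measure the wild-type channel was weakest on arrays 4 and 2. Adcyap1 gave no check of the genotype labels, since its 1 clone passed the quality filter on 2 arrays.

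Of the 162 clones, 146 clones of 54 genes were measured on at least 4 arrays and tested, and 121 of them were measured on all 6. The 16 untested clones were dim, with a median red signal of 64.1 against 259 for the tested ones, and they include the only clones of Eif2ak3 and Eif4ebp1. With global loess 52 tested clones (35.6%) passed, against 30.5% of all clones on the array. Of these, 40 were higher in the knockout (27.4%, against 16.2% of all clones) and 12 were lower (8.22%, against 14.3%). With print-tip loess 24 clones (16.4%) passed, against 11.5% of all clones, 21 of them higher (14.4%, against 6.86%) and 3 lower (2.05%, against 4.66%). The median ratio of the tested factor clones was 0.16 with global and 0.15 with print-tip loess, where the medians of all clones were 0.02 and -0.0017. Ratios above 0 made up 68.5% of factor clones with global and 73.3% with print-tip loess, against 51.7% and 49.7% of all clones. In whole-tissue RNA, fewer cells of a type and less RNA per cell cannot be told apart.

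Both normalizations called 16 clones higher and 3 lower in the knockout, and no clone was called in opposite directions by them. The 16 higher clones came from Eef2, Eif4a1, Eif4a2, Eif4g2, Eif4g3, Eif4h, Eif4b, Eif5, Eif5b, Eif3f, Eif3i, Eef1a2 and Eif2s3x, and the 3 lower ones from Eif2b5, Eef2k and Eif4enif1. Of these 19 clones, 14 passed with global loess in every fit without 1 array that could be made. For Eif2s3x 2 such fits could be made, without array 2 and without array 4. It had no value on either array, so its ratio could not change in them. With print-tip loess no clone passed in every fit, and the most for any clone was 3 of 6. In those print-tip fits the 16 higher clones kept ratios of at least 0.33 and the 3 lower ones stayed at or below -0.27. With print-tip loess and limma, leaving out array 2, array 3 or array 6 left no factor clone past the threshold, although 45, 45 and 50 clones were higher at an unadjusted p under 0.05 in those fits and 5, 8 and 7 were lower. The loss was not one of the factors in particular: over the whole array these fits called 1 of 28217, 1 of 27337 and 1 of 27338 clones. No share of all clones was taken at the unadjusted p. Leaving out array 4 left 1 factor clone (0.704%, against 0.101% of all clones), the Eif5 clone of print block 12. Leaving out array 1 gave 29 higher and 3 lower clones (22.9% called in all, against 13.8% of all clones). Leaving out array 5 gave 17 and 2 (13.5% against 9.91%). With global loess the number of higher clones ran from 20 (without array 2, or without array 4) to 43 (without array 1), and that of lower clones from 5 (without array 4) to 15. The share called in all was 19.2% without array 2 (against 21.6% of all clones) and 17.6% without array 4 (against 16.1%). Without array 1 it was 41.4% (against 31.6%).

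**Figure D1:**
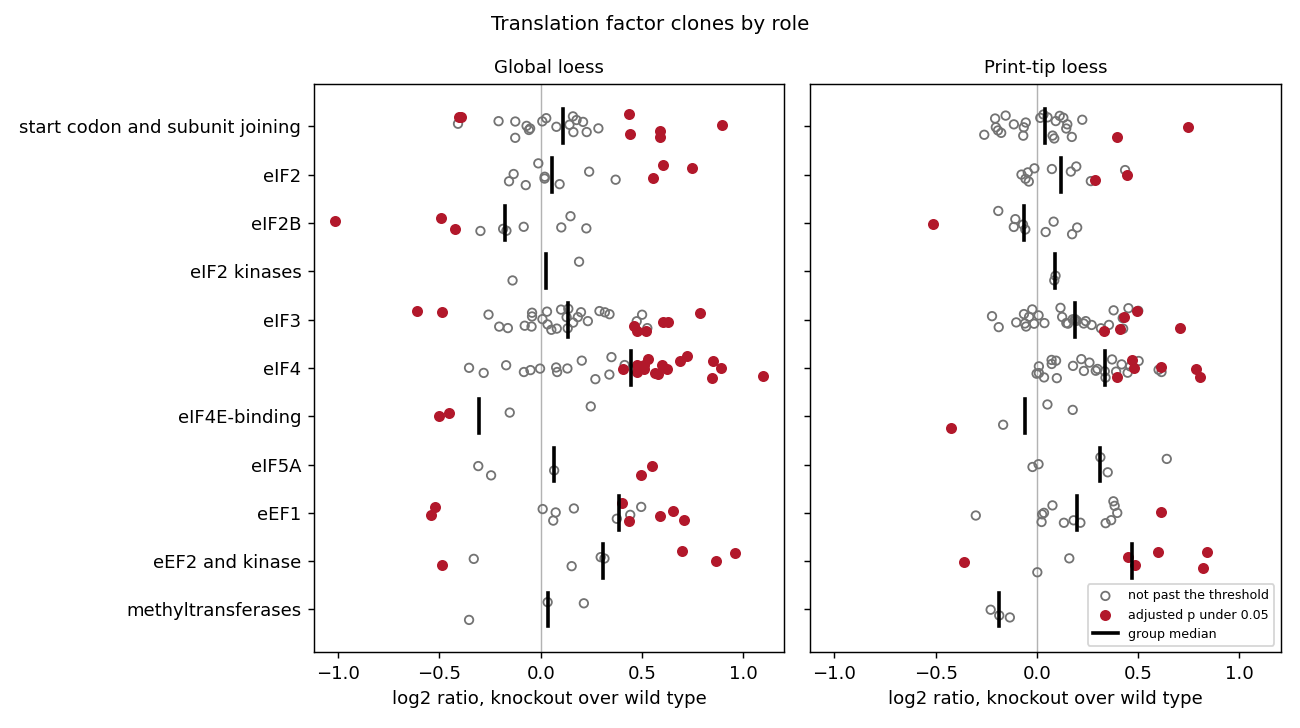
Log2 ratio of knockout over wild type (horizontal axis) of the 146 tested clones, grouped by the role of the factor, after global loess (left) and print-tip loess (right). Filled points passed the test, open points did not, and vertical bars are group medians, which are 0.44 and 0.34 for eIF4 and -0.18 and -0.06 for eIF2B.

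Eef2 encodes elongation factor 2, the GTPase that moves the ribosome by 1 codon. All 5 Eef2 clones were higher in the knockout with print-tip loess, with ratios between 0.45 and 0.84, and 3 of the 5 with global loess, where ratios ran from 0.15 to 0.96. The scanner files give the spots of blocks 7, 37 and 45 the same clone accession, so the 5 calls come from 3 accessions and the 3 from 2. Spots of this accession were annotated to more than 1 gene, so they were kept apart by well. The Eef2 spots are therefore counted as separate clones here, which need not be independent. The signs of these clones flipped under other scalings: all 5 ratios were below 0 (-0.85 to -0.02) in the authors' value table, which subtracts the background a second time, and that of print block 13 was -0.17 after median centring. With print-tip loess the clone of block 37 read 0.09, 1.47, 0.65, 1.48, 1.09 and 0.26 on arrays 1 to 6, with a mean of 0.84 ± 0.18 (adjusted p = 0.031). Its global loess values were 0.05, 1.72, 1.16, 1.60, 1.33 and -0.09, with a mean of 0.96 ± 0.22 (adjusted p = 0.0068). Arrays 2 and 4 were highest and arrays 1 and 6 lowest under both.

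The Eef2 clone of print block 45 gave -0.07, 1.32, 0.75, 1.53, 0.70 and 0.69 with print-tip loess, a mean of 0.82 ± 0.18 (adjusted p = 0.030), and 0.87 ± 0.19 with global loess (adjusted p = 0.0060). At block 23 the values were 0.02, 1.21, 0.67, 1.04, 0.46 and 0.18, a mean of 0.60 ± 0.15 (adjusted p = 0.039), beside 0.70 ± 0.17 with global loess (adjusted p = 0.0079). In both sets of print-tip values array 1 was near 0 and arrays 2 and 4 were highest. The remaining Eef2 clones passed with print-tip loess only: block 7 gave 0.49 ± 0.11 (adjusted p = 0.033) and block 13 gave 0.45 ± 0.11 (adjusted p = 0.037), with every array above 0, while their global loess values were 0.31 ± 0.12 (adjusted p = 0.066) and 0.15 ± 0.13 (adjusted p = 0.39). The fold changes of the clones of blocks 37, 45 and 23 with print-tip loess were 1.79, 1.77 and 1.51.

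Eef2k encodes the calcium- and calmodulin-dependent kinase that phosphorylates and inhibits eEF2. Of its 3 tested clones 1, that of block 21, was lower in the knockout on every array: -0.49 ± 0.12 with global loess (adjusted p = 0.011) and -0.36 ± 0.10 after print-tip correction (adjusted p = 0.041). The other two did not pass. The clone of block 3 read 0.002 and -0.33 with print-tip and global loess, and that of block 45 read 0.16 and 0.30, so the kinase's clones did not share a sign.

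Among the eEF1 genes, Eef1a2, the isoform of the tRNA-delivering GTPase typical of neurons and muscle, had a clone called by both normalizations. At block 30 it gave 0.22, 0.94, 0.69, 0.95, 0.23 and 0.63 with print-tip loess (mean 0.61 ± 0.12, adjusted p = 0.025) and 0.08, 1.04, 0.76, 1.03, 0.31 and 1.03 with global loess (mean 0.71 ± 0.15, adjusted p = 0.0047). All 6 arrays were above 0, with arrays 1 and 5 lowest. Its clone of block 25 passed with global loess only (0.44 ± 0.15, adjusted p = 0.037; print-tip 0.38 ± 0.12, adjusted p = 0.066), and the last, of block 28, read 0.38 and 0.02 and did not pass.

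The exchange factor that reloads eEF1A has subunits encoded by Eef1b2, Eef1d and Eef1g. Eef1g had 3 of 5 tested clones higher with global loess, at blocks 12 (0.59 ± 0.16, adjusted p = 0.014), 33 (0.40 ± 0.13, adjusted p = 0.036) and 39 (0.65 ± 0.14, adjusted p = 0.0045). None of the 3 passed with print-tip loess, where they read 0.40, 0.21 and 0.38 with adjusted p of 0.16, 0.12 and 0.051. Another of the 5, of block 19, is titled as sr104 protein in the scanner files and did not pass. Neither Eef1b2 nor Eef1d had a call, with print-tip ratios of 0.18 and 0.37 for Eef1b2 and 0.13 and 0.03 for Eef1d. Eef1e1, a scaffold protein of the tRNA synthetase complex, had both tested clones lower with global loess, at block 4 (-0.52 ± 0.16, adjusted p = 0.024) and block 5 (-0.54 ± 0.17, adjusted p = 0.033), and neither with print-tip loess (-0.30 and 0.03, adjusted p = 0.17 and 0.88). In all, 5 of 14 eEF1 clones were higher with global loess (35.7%, against 16.2% of all clones) and 2 were lower, where 14.3% of all clones were. With print-tip loess 1 was higher (7.14%, against 6.86%).

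The abundant isoform gene Eef1a1 was not taken into the set. All 12 of its clones passed with print-tip loess, at ratios from 0.84 to 1.42, and 11 passed with global loess, where ratios ran from 0.37 to 1.97.

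The eIF4 factors, which recognise the cap and unwind the leader of the mRNA, were the role group with the most calls with global loess. There 16 of its 30 tested clones were higher (53.3%, against 16.2% of all clones) and none lower, with a median of 0.44. With print-tip loess 6 were higher (20%, against 6.86%) and none lower, the median was 0.34, and 29 of 30 ratios were above 0. Without arrays 2 and 4 the print-tip median of eIF4 fell to 0.16, with 25 of 30 ratios above 0. The group of eEF2 and its kinase had 5 of 8 clones higher (62.5%, against 6.86% of all clones) and 1 lower with print-tip loess.

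Eif4a1 and Eif4a2 encode the RNA helicase eIF4A. The Eif4a2 clone of block 14 read 0.26, 1.33, 0.73, 1.65, 0.30 and 0.56 with print-tip loess (0.80 ± 0.18, adjusted p = 0.031) and 0.10, 1.08, 0.35, 1.30, 0.09 and 0.48 with global loess (0.57 ± 0.17, adjusted p = 0.021). For Eif4a1 at block 16 the print-tip values were 0.35, 1.37, 0.53, 1.56, 0.03 and 0.88 (0.79 ± 0.18, adjusted p = 0.033), and the global ones 0.54, 1.50, 0.47, 1.79, 0.22 and 2.06 (1.10 ± 0.22, adjusted p = 0.0036). Every array lay above 0 for both clones, and array 5 was the lowest or next to lowest. Other helicase clones passed with global loess only: Eif4a2 at blocks 37 (0.69 ± 0.21, adjusted p = 0.023) and 43 (0.41 ± 0.13, adjusted p = 0.035), and the Eif4a1 clone spotted in blocks 16, 24 and 32 (0.89 ± 0.19, adjusted p = 0.0053). With print-tip loess these read 0.50, 0.30 and 0.46, with adjusted p = 0.070, 0.077 and 0.073. A further Eif4a1 clone, of block 25, did not pass (0.27 and 0.26), and the scanner files title it as Tnf receptor-associated factor 2.

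Eif4g2 encodes a scaffold related to eIF4G that lacks the part binding the cap-binding protein, and Eif4g3 encodes an eIF4G scaffold. The Eif4g2 clone spotted in blocks 6 and 46 read 0.14, 1.34, 0.39, 1.20, 0.24 and 0.37 with print-tip loess (0.61 ± 0.16, adjusted p = 0.042) and 0.14, 1.35, 0.46, 1.08, 0.03 and 0.12 with global loess (0.53 ± 0.18, adjusted p = 0.035). Arrays 2 and 4 stood above the other arrays. Eif4g2 clones of blocks 15, 30 and 42 passed with global loess only, at 0.62 ± 0.17, 0.47 ± 0.17 and 0.72 ± 0.23 (adjusted p = 0.013, 0.0498 and 0.030). Their print-tip ratios were 0.62, 0.39 and 0.60 (adjusted p = 0.051, 0.16 and 0.084), and all 6 Eif4g2 clones were above 0 under both normalizations. The scanner files title 1 of the 6, that of block 21, as Rab6, kinesin-like.

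The Eif4g3 clone of block 47 gave -0.05, 0.36, 0.39, 0.79, 0.65 and 0.72 with print-tip loess (0.48 ± 0.11, adjusted p = 0.034), while global loess gave 0.85 ± 0.15 (adjusted p = 0.0018). Here array 1 alone lay below 0. The Eif4g3 clone of block 48 passed with global loess only (0.58 ± 0.15, adjusted p = 0.012; print-tip 0.07 ± 0.10, adjusted p = 0.63). Its clone of block 6 read -0.003 with global and 0.45 with print-tip loess (adjusted p = 0.051), and so did not pass.

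Eif4h and Eif4b encode RNA-binding proteins that stimulate the helicase. Eif4h at block 32 read 0.24, 0.85, 0.35, 1.00, 0.11 and 0.26 with print-tip loess (0.47 ± 0.12, adjusted p = 0.042), against 0.85 ± 0.14 with global loess (adjusted p = 0.0017). All 6 arrays were above 0, and arrays 2 and 4 were highest. Eif4h at block 46 passed with global loess only (0.51 ± 0.17, adjusted p = 0.035; print-tip 0.37 ± 0.15, adjusted p = 0.11). Eif4b at block 33 was higher under both (print-tip 0.39 ± 0.09, adjusted p = 0.032; global 0.60 ± 0.15, adjusted p = 0.0096), and at block 30 with global loess only (0.47 ± 0.16, adjusted p = 0.041; print-tip 0.34 ± 0.12, adjusted p = 0.087). For the cap-binding protein itself, 1 of 5 Eif4e clones passed, that of block 35 with global loess (0.51 ± 0.17, adjusted p = 0.035), and its print-tip value was 0.18 ± 0.13 (adjusted p = 0.36). The 5 Eif4e clones read 0.04 to 0.23 with print-tip loess. In the scanner files that of block 17 is titled as zinc finger protein 207 and that of block 26 as highly similar to KIAA0515 protein.

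The proteins that bind eIF4E had 4 tested clones, of which 2 were lower with global and 1 with print-tip loess. Of all clones 14.3% and 4.66% were lower. Eif4enif1, the transporter that carries eIF4E into the nucleus, had 1 of 3 clones lower under both normalizations: the second clone of block 8 read -0.50 ± 0.13 with global loess (adjusted p = 0.014) and -0.42 ± 0.10 after print-tip correction (adjusted p = 0.036), below 0 on every array. That sign flipped in the authors' value table (2.47) and with a normexp background correction (0.12), both of which subtract the background a second time. The remaining Eif4enif1 clones read -0.17 and 0.18 with print-tip loess and did not pass. The repressor gene Eif4ebp2 was lower with global loess (-0.45 ± 0.15, adjusted p = 0.034) and at 0.05 ± 0.09 with print-tip loess (adjusted p = 0.72), in block 5.

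**Figure D2:**
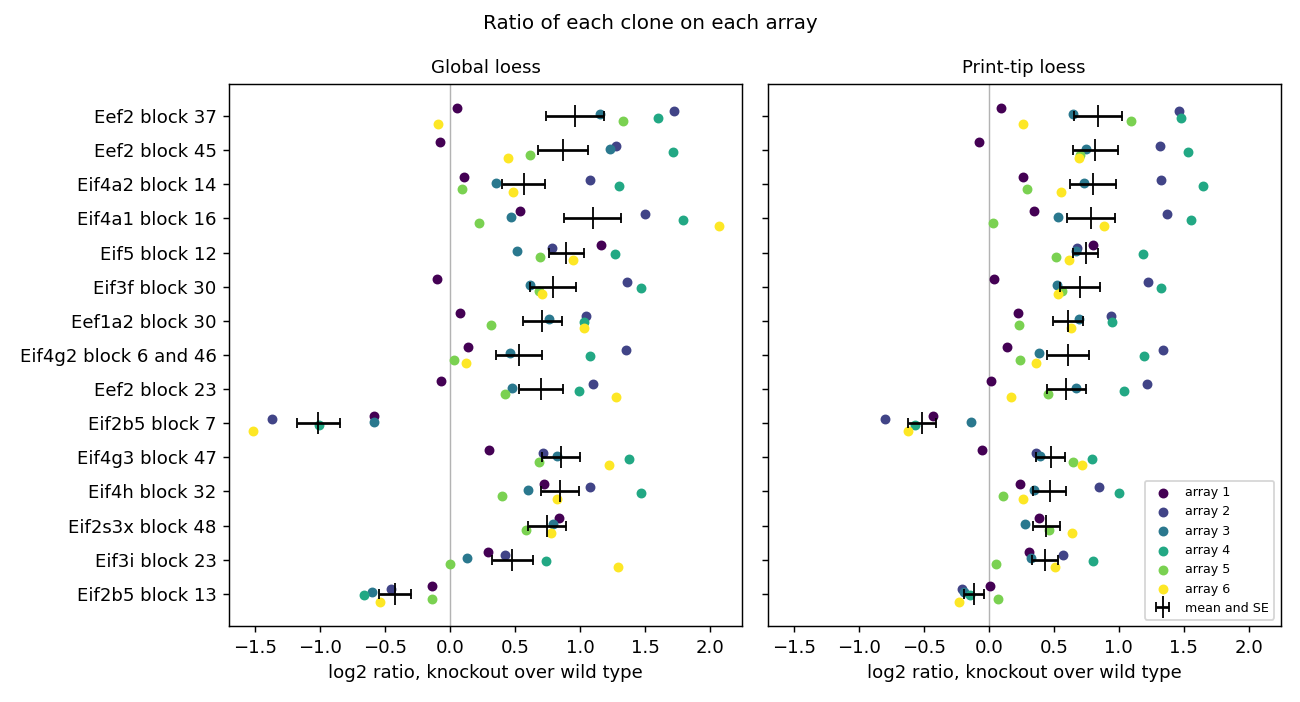
Log2 ratio of knockout over wild type on each of the 6 arrays (coloured points) for the clones described array by array, with the mean and standard error from limma as a black bar, after global loess (left) and print-tip loess (right). Values of arrays 2 and 4 lie at the upper end for most clones, as for the Eef2 clone of block 37 at 1.47 and 1.48 with print-tip loess.

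The eIF2 group holds the subunits of the tRNA carrier and a pair of factors that can load tRNA without it. Of its 12 tested clones 3 were higher with global loess (25%, against 16.2% of all clones). With print-tip loess 2 were higher (16.7%, against 6.86%), and none was lower under either. Eif2s3x, the X-linked gene of the GTP-binding gamma subunit, was measured on 4 arrays at block 48 and read 0.39, 0.28, 0.46 and 0.64 on arrays 1, 3, 5 and 6 with print-tip loess (0.44 ± 0.10, adjusted p = 0.038). The global loess values were 0.84, 0.79, 0.58 and 0.78 (0.74 ± 0.15, adjusted p = 0.0045). These 4 arrays lay close together, and arrays 2 and 4 had no value that passed the quality filter. This is a dim clone, with a median red signal of 76.7, and the other Eif2s3x clone, of block 19, did not pass (-0.07 and -0.04 with global and print-tip loess).

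Its Y-linked counterpart Eif2s3y, of block 24, was higher with global loess (0.55 ± 0.14, adjusted p = 0.011) and read 0.19 ± 0.10 with print-tip loess (adjusted p = 0.20). The female-expressed X-linked RNA Xist read 0.07 and -0.08 in the same fits and did not pass (adjusted p = 0.69 and 0.47). Eif2s2, the gene of the beta subunit, had 6 clones. Of these, 1 passed with global loess, at block 24 (0.61 ± 0.12, adjusted p = 0.0033; print-tip 0.27 ± 0.12, adjusted p = 0.16), and another with print-tip loess, at block 13 (0.29 ± 0.08, adjusted p = 0.041; global -0.01 ± 0.12, adjusted p = 0.95). The kinases that phosphorylate eIF2 had 2 tested clones and no call, and the smaller p was that of Eif2ak1 at block 17 with global loess (-0.14 ± 0.12, adjusted p = 0.41).

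For eIF2B, the exchange factor of eIF2, no clone was higher. With global loess 3 of 10 tested clones were lower, where 14.3% of all clones were, and with print-tip loess 1, where 4.66% of all clones were. Eif2b5 encodes the catalytic epsilon subunit. Its clone of block 7, measured on 5 arrays, read -0.43, -0.80, -0.13, -0.57 and -0.62 on arrays 1, 2, 3, 4 and 6 with print-tip loess (-0.51 ± 0.11, adjusted p = 0.031). The global loess values were -0.58, -1.37, -0.59, -1.01 and -1.52 (-1.01 ± 0.17, adjusted p = 0.0016). All 5 arrays were below 0 under both. The alternatives that subtract the background a second time differed: normexp gave -0.07 (adjusted p = 0.74) and the authors' value table gave 3.81. The red signal of this clone, after subtraction of the background, had a median of 180.5 and was smaller than its local background on 5 arrays.

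Eif2b5 at block 13, a much brighter clone with a red median of 2946, read -0.14, -0.45, -0.60, -0.66, -0.14 and -0.54 with global loess (-0.42 ± 0.12, adjusted p = 0.021). With print-tip loess it read 0.01, -0.20, -0.19, -0.14, 0.07 and -0.23 (-0.11 ± 0.08, adjusted p = 0.32) and did not pass. The last Eif2b5 clone, of block 4, read -0.17 and 0.20 and did not pass either. Eif2b1, the alpha subunit, was lower with global loess only, at block 5 (-0.49 ± 0.12, adjusted p = 0.011; print-tip 0.08 ± 0.09, adjusted p = 0.53). The 6 tested clones of the beta, gamma and delta subunits (Eif2b2, Eif2b3, Eif2b4) did not pass, with print-tip ratios between -0.19 and 0.17.

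eIF3, the large scaffold complex on the small subunit, had 34 tested clones of 11 genes. With global loess 6 were higher (17.6%, against 16.2% of all clones) and 2 lower, where 14.3% of all clones were lower. With print-tip loess 5 were higher (14.7%, against 6.86%) and none lower (4.66% of all clones). Eif3f at block 30 gave 0.04, 1.23, 0.53, 1.33, 0.57 and 0.53 with print-tip loess (0.70 ± 0.15, adjusted p = 0.031) and -0.10, 1.36, 0.61, 1.47, 0.68 and 0.71 with global loess (0.79 ± 0.18, adjusted p = 0.0063). Array 1 was near 0, and arrays 2 and 4 were highest. The other tested Eif3f clones read -0.02 and 0.43 with print-tip loess and did not pass.

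Eif3i at block 23 read 0.31, 0.57, 0.33, 0.80, 0.05 and 0.51 with print-tip loess (0.43 ± 0.10, adjusted p = 0.033), while global loess gave 0.48 ± 0.16 (adjusted p = 0.036), with no array below 0. A second Eif3i clone, of block 16, was also higher under both (print-tip 0.41 ± 0.11, adjusted p = 0.043; global 0.60 ± 0.15, adjusted p = 0.0097), but the scanner files title it as bromodomain-containing 4. Eif3h at block 3 (0.33 ± 0.08, adjusted p = 0.038) and Eif3k at block 5 (0.49 ± 0.13 over 5 arrays, adjusted p = 0.047) passed with print-tip loess only, beside global loess values of 0.03 and -0.04. This Eif3h clone is titled in the scanner files as an EST weakly similar to a proline-rich protein. Global loess alone called Eif3b at block 24 (0.63 ± 0.15, adjusted p = 0.0070; print-tip 0.32, adjusted p = 0.055) and Eif3h at block 8 (0.52 ± 0.16, adjusted p = 0.029; print-tip 0.50, adjusted p = 0.071) higher, and Eif3m at block 6 lower (-0.61 ± 0.17, adjusted p = 0.016; print-tip -0.19, adjusted p = 0.21). Eif3a, the largest subunit, had 8 tested clones without a call, at print-tip ratios between -0.10 and 0.24.

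Clones of Eif3d were called in opposite directions with global loess, higher at block 35 (0.46 ± 0.13, adjusted p = 0.017) and lower at block 5 (-0.49 ± 0.13, adjusted p = 0.014). With print-tip loess they read 0.12 and 0.04 and did not pass (adjusted p = 0.48 and 0.78). Eif5 was the other gene with opposite calls.

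Eif5 encodes the protein that triggers GTP hydrolysis by eIF2 once the start codon is found, and its clone of block 12 kept its print-tip call in more of the fits without 1 array than any other clone called by both normalizations. It read 0.80, 0.68, 0.67, 1.19, 0.52 and 0.62 with print-tip loess (0.75 ± 0.10, adjusted p = 0.021, 1.68-fold) and 1.16, 0.79, 0.52, 1.27, 0.69 and 0.94 with global loess (0.89 ± 0.13, adjusted p = 0.00086). All 6 arrays were above 0.5 in both. Its print-tip ratio was past the threshold in 3 of those 6 fits, and without arrays 2 and 4 it passed at 0.65 (adjusted p = 0.037) with print-tip and 0.83 (adjusted p = 0.015) with global loess.

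The other 8 Eif5 clones did not share this value. With print-tip loess they ranged from -0.21 to 0.14 and none passed. With global loess the clone of block 36 was higher (0.59 ± 0.13, adjusted p = 0.0051; print-tip 0.14, adjusted p = 0.28) and the first clone of block 3, the brightest of all factor clones with a red median of 3275, was lower (-0.39 ± 0.12, adjusted p = 0.028; print-tip -0.07, adjusted p = 0.55).

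Eif5b, the GTPase of subunit joining, was higher at block 31 under both normalizations (print-tip 0.39 ± 0.10, adjusted p = 0.039; global 0.59 ± 0.14, adjusted p = 0.0090), and at block 39 with global loess only (0.43 ± 0.14, adjusted p = 0.031; print-tip 0.03, adjusted p = 0.88). For eIF1A, which helps in scanning for the start codon, global loess called Eif1a at block 36 higher (0.44 ± 0.14, adjusted p = 0.027; print-tip -0.06, adjusted p = 0.70) and Eif1ax at block 21 lower (-0.40 ± 0.12, adjusted p = 0.021; print-tip -0.20, adjusted p = 0.10). Eif6, which keeps the large subunit from joining early, had 3 clones without a call.

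eIF5A, the hypusine-containing factor that helps ribosomes past difficult stretches, is encoded by Eif5a and Eif5a2. Both Eif5a clones were higher with global loess, at block 18 (0.55 ± 0.18, adjusted p = 0.033) and block 42 (0.50 ± 0.16, adjusted p = 0.031). With print-tip loess they read 0.64 ± 0.20 and 0.31 ± 0.09 (adjusted p = 0.059 and 0.056) and did not pass. The 2 tested Eif5a2 clones read -0.02 and 0.01. The 3 methyltransferases of elongation factors had no call, and the smallest p was that of Eef1aknmt at block 10 with global loess (-0.35 ± 0.14, adjusted p = 0.061).

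Known TOP mRNAs include 8 genes of the set: Eef1b2, Eef1d, Eef1g, Eef2, Eif3e, Eif3f, Eif3h and Eif4b. Their 25 tested clones had a median ratio of 0.44 with global and 0.36 with print-tip loess. Of them 10 and 8 were higher (40% and 32%, against 16.2% and 6.86% of all clones), with none lower (14.3% and 4.66% of all clones). The 121 other factor clones had medians of 0.13 and 0.10, with 30 and 13 higher (24.8% and 10.7%) and 12 and 3 lower. Eef2 supplied 3 and 5 of the TOP calls, from 2 and 3 clone accessions. Without Eef2 the 20 remaining TOP clones had 7 and 3 higher (35% and 15%), with medians of 0.42 and 0.33. Of all tested factor clones 27.4% and 14.4% were higher. The TOP clones were also brighter, with a median red signal of 399 against 239 for the other factor clones.

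Starts of 43 of the 56 genes were found in a RefSeq promoter table (GRCm38.p6), and the first 50 bases of each transcript were searched for an unbroken run of at least 8 pyrimidines (C or T). Such a run was present at 15 of 58 starts (25.9%), from 14 genes, against 17.4% of all 32851 starts in the table. On the opposite strand the shares were 17.2% and 21.2%. Among the known TOP genes named above, Eef2 and Eif3f had a run, while Eef1b2 and Eif4b had a start without one. Eef1d, Eef1g, Eif3e and Eif3h had no start in the promoter table. A run of this kind is a description of the letters and does not show that an mRNA is under TOP control. The starts below are those of genes with a clone called higher by print-tip loess whose run begins within the first 16 bases, with Eif2s3y for comparison with its X-linked counterpart. Capitals mark the part of the run that lies within the transcript.
Eef2, chr10:81176634-81176663, plus strand: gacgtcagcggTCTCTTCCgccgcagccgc
Eif3f, chr7:108934406-108934435, plus strand: ctaggctctCTCTCTTTCTCggcaagatgg
Eif3k, chr7:28981855-28981884, minus strand: ctgaaagcgCCTTTCCCTTTgccttccttg
Eef1a2, chr2:181156980-181157009, minus strand: gctcactggTTCTCTCCCTCgctccggtgc
Eif2s3x, chrX:94212631-94212660, minus strand: agcattttcCTTTTCTCTCCgagcaagatg
Eif2s3y, chrY:1010587-1010616, plus strand: ccacagccaCTTCCTTCTTTCgtgagcaag

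In the sequences shown, the run as searched started at base 1 of the transcript, the position of a TOP tract, for Eif3f and Eif2s3x. The search began at the annotated start, and in both sequences pyrimidines continue before that start. Base 1 is therefore set by the annotated start and is not where the unbroken run begins. For Eif2s3y the run started at base 2, after an A. It began further in for Eef2 (base 15), Eif3k (base 14) and Eef1a2 (base 16). The paralogs Eif2s3x and Eif2s3y both carried a long run at or next to the start, of 11 and 12 pyrimidines within the transcript. Genes with a clone called lower by both normalizations also had runs: Eif4enif1 at bases 7 and 15 of different starts, Eif2b5 at base 35 and Eef2k at base 24 of 1 start. Runs were thus found in genes called in either direction. Among the genes called higher by both, Eif4a1, Eif4a2, Eif4g3, Eif4h, Eif4b, Eif5 and Eif5b had no run at their listed starts.

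Calls depended on where on the slide a clone was printed. Print blocks 1 to 8, at one end of the slide, held 29 tested factor clones, and 9 of the 12 lower calls with global loess came from there, along with 2 of the 40 higher calls. Blocks 25 to 48 held 69 clones and 25 of the higher calls. Across the 146 clones, which share arrays, the global loess ratio correlated with the mean ratio of all clones in the block at Pearson r = 0.62, and the print-tip ratio at r = -0.0002. The latter follows from the method, since print-tip loess centres every block, and says nothing about the clones. The median ratio of clones in blocks 1 to 8 was -0.17 with global and 0.08 with print-tip loess, and that in blocks 25 to 48 was 0.30 and 0.14.

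**Figure D3:**
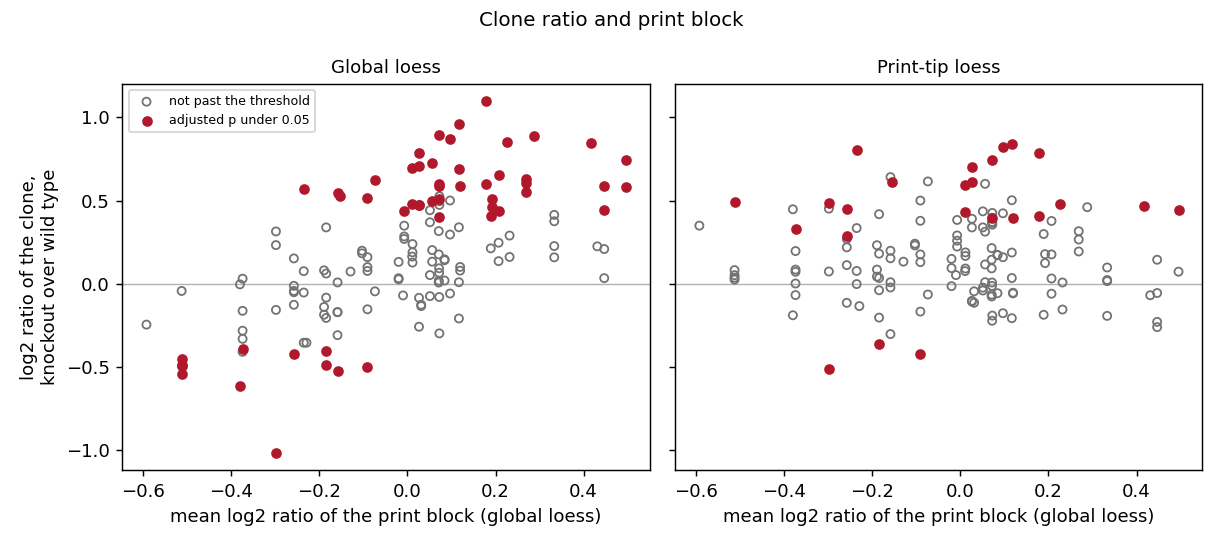
Log2 ratio of each tested factor clone (vertical axis) against the mean global loess log2 ratio of all clones in its print block (horizontal axis), after global loess (left) and print-tip loess (right). Filled points passed the test; with global loess the clones climb with the block mean (r = 0.62) and the lower calls lie in blocks with a negative mean, while print-tip loess centres every block, so that r = -0.0002 follows from its construction.

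Spots that share a clone accession but lie in different blocks show the same dependence. The Eef2 spots that share a clone accession, in blocks 7, 37 and 45, read 0.31, 0.96 and 0.87 with global loess and 0.49, 0.84 and 0.82 with print-tip loess. For Eif4g2 in blocks 6 and 46 the values were 0.25 and 0.82 with global loess and 0.57 and 0.66 with print-tip loess. Eif4a1 in blocks 16, 24 and 32 gave 0.82, 0.84 and 1.01 with global loess and 0.53, 0.45 and 0.41 with print-tip loess. Eef1g in blocks 11, 19 and 27 stayed low under both, at 0.01 to 0.25 and 0.05 to 0.09. Print-tip loess brought the spots of Eef2, Eif4g2, Eif4a1 and Eef1g closer to each other.

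**Figure D4:**
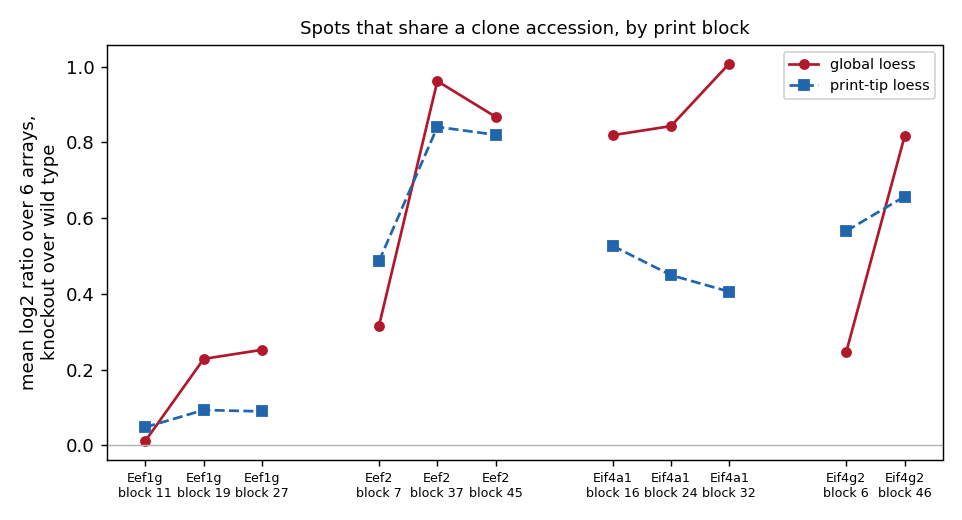
Mean log2 ratio over 6 arrays of spots that share a clone accession, by print block, with global loess (circles, solid lines) and print-tip loess (squares, dashed lines). Lines only join spots of 1 clone accession. The Eif4g2 spots read 0.25 and 0.82 with global loess and 0.57 and 0.66 with print-tip loess.

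Clones of 1 gene often disagreed. Of 41 genes with at least 2 tested clones, 22 had all clones on the same side of 0 with print-tip loess (19 above, 3 below) and 18 with global loess (16 above, 2 below). With print-tip loess, Eef2 and Eif3i were the only genes with at least 2 clones higher in the knockout, and with global loess there were 13 such genes. With print-tip loess the 49 dimmest clones had a median ratio of 0.03 and 1 higher call, and the 49 brightest a median of 0.22 and 10 higher calls. With global loess the medians were 0.09 and 0.20, with 9 and 16 higher calls. Across the 146 clones the ratio correlated with the mean log2 signal at Pearson r = 0.26 with print-tip and 0.10 with global loess. The part of signal in the calls was not tested.

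The arrays differed in how far the factor clones stood from 0. With print-tip loess the median over the tested factor clones was 0.01, 0.31, 0.15, 0.32, 0.02 and 0.14 on arrays 1 to 6, while the median over all clones lay between -0.006 and 0.006. The highest medians were thus on arrays 2 and 4, those with the weakest red signal, and the lowest on arrays 1 and 5. Without arrays 2 and 4 the median ratio over factor clones was 0.06 with print-tip and 0.11 with global loess, with 60.1% and 62.2% of clones above 0. The calls without these arrays were 1 higher clone with print-tip loess, and 7 higher clones and 1 lower with global loess. These are shares of 0.676% and 5.41%, against 0.3% and 7.07% of all clones. The 7 were of Eif5 (blocks 12 and 36), Eif2s2 (block 24), Eif2s3x (block 48), Eif4a1 (block 16), Eif4g3 (block 47) and Eif4h (block 32), and the lower one was Eif2b5 of block 7. The Eif2s3x clone had no value on arrays 2 and 4, so leaving them out could not change its ratio. The part of the weak red signal in the results was not tested.

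A list of 46 other genes of translation (release factors, poly(A)-binding proteins, tRNA synthetases, mitochondrial factors, stress-response regulators, mTOR and its substrates) had 78 tested clones of 39 genes. With global loess 15 of the 78 were higher and 7 lower, where 16.2% and 14.3% of all clones were. With print-tip loess 4 and 2 of the 78 were, where 6.86% and 4.66% of all clones were. The medians were 0.10 and 0.04. The largest higher ratios past the threshold with global loess were those of the glutamyl-prolyl-tRNA synthetase Eprs at block 44 (0.92 ± 0.18, adjusted p = 0.0031; print-tip 0.24, adjusted p = 0.29) and the seryl-tRNA synthetase Sars at block 48 (0.83 ± 0.13, adjusted p = 0.0013; print-tip 0.15, adjusted p = 0.24). The largest lower ones were those of Ppp1r15b, a phosphatase subunit that reverses eIF2 phosphorylation, at block 5 (-0.61 ± 0.15, adjusted p = 0.0083; print-tip -0.10, adjusted p = 0.39) and the tryptophanyl-tRNA synthetase Wars, also at block 5 (-0.60 ± 0.13, adjusted p = 0.0063; print-tip -0.11, adjusted p = 0.40). With print-tip loess they were Eprs at block 4 (0.79 ± 0.20, adjusted p = 0.039) and Pabpc1, the poly(A)-binding protein, at block 41 (0.55 ± 0.15, adjusted p = 0.042) for the higher, and Ppp1r15b at block 26 (-0.44 ± 0.09, adjusted p = 0.028) and Wars at block 12 (-0.33 ± 0.09, adjusted p = 0.040) for the lower.

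Marker genes of both parts of the gland were measured in the same samples. For comparison, 16.2% of all clones were higher and 14.3% lower with global loess, and 6.86% and 4.66% with print-tip loess. Of 8 tested clones of chromaffin cell markers, 6 were higher and 1 lower with global loess and 4 and 1 with print-tip loess, with median ratios of 0.99 and 0.52 and red signals between 143 and 2218. The higher ones with global loess were 3 clones of Chga and 2 of Chgb, which encode granins of the secretory granule, and the clone of Th, the tyrosine hydroxylase. The Chga clone of block 42 is titled in the scanner files as neural precursor cell expressed, developmentally down-regulated gene 4a. The lower one was Slc18a1, the amine transporter (-0.41 and -0.46 with global and print-tip loess), and Ddc did not pass (0.10 and 0.29). Of 9 tested clones of cortex markers, 5 were higher with global and 4 with print-tip loess, with medians of 0.64 and 0.67, and none was lower. Of 14 clones of fibroblast and capsule markers 5 were higher and 2 lower with global loess, and 2 were higher with print-tip loess. Clones of macrophage (2), lymphocyte (3), erythroid (2), endothelial (4), adipocyte (1) and Schwann cell (2) markers had no call with print-tip loess, 1 macrophage clone higher and 1 lymphocyte clone lower with global loess, and no kidney marker was on the array. The part of the cell mix in the ratios of the factors was not tested.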

How the data were processed

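The deposited scanner files give red and green intensities per spot, from which the authors had already subtracted the background, and a quality score for each ratio, per the file headers and the series design text. The series value table gives the authors' ratios of red over green as log2 values. Versions of their software are not given in the sources used here. The ratio of green (knockout) to red (wild type) was taken for spots scoring above 0.3, put on a log2 scale, normalized within each array by global or print-tip loess (span 0.3), and averaged per clone. Clones measured on at least 4 of 6 arrays entered limma 3.58.1 (R 4.3.3), where lmFit and eBayes tested the mean ratio against 0, and the code was tested on simulated data. To name genes, each row of the value table was matched to the spot with the same values (within 0.002 on every array), which succeeded for 35793 of 35873 rows. Genes came from the probe annotation, with symbols updated through RefSeq. Of the clones, 22374 had 1 gene, 1104 had several and were not used, and 12284 had no listed gene.

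Clones called by both normalizations, and Eif2b5, were described array by array, up to 14 in order of the print-tip ratio plus the second Eif2b5 clone. Every other called clone was named with its mean, and of a group without a call the clone of smallest p. The members and lists were chosen with earlier results of these data known. Alternatives were median centring, the value table, normexp (a second subtraction of the background), other quality limits, array weights and leaving out arrays.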

Additional observations from a re-analysis of the deposited data

How the results depend on the processing

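With global loess as the reference (40 higher, 12 lower, median 0.16), print-tip loess gave 21 higher and 3 lower. No quality filter gave 26 higher (22.2% of factor clones called in all, against 21.7% of all clones). Normexp, which subtracts the background a second time, gave 26 higher and 6 lower (21.9% against 19.7%). Leaving out arrays 2 and 4 gave 7 and 1 (5.41% against 7.07%), or, with print-tip loess and chosen after seeing the data, 1 and 0 (0.676% against 0.3%; 31 and 4 at an unadjusted p under 0.05). The value table gave 0 and 0 by limma (27 and 13 unadjusted), against 0.315% of all clones called, with a median of 0.47, where all clones had 0.24. No share of all clones was taken at an unadjusted p. Leaving out 1 array, under either normalization, gave 0 to 43 higher and 0 to 15 lower (0% to 41.4% called in all, against 0.00354% to 31.6% of all clones). Median centring, a quality above 0.5, all 6 arrays or array weights gave 37 to 50 higher and 9 to 15 lower. In that order 35.6%, 33.8%, 39.7% and 44.5% were called, against 32.9%, 30.7%, 32.3% and 38.9% of all clones. The median over factor clones stayed above 0 in every setting run. The causes were not tested.

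Signs of clones turned as follows. Print-tip loess gave -0.055 for Eif1a block 36, 0.29 for Eif2s2 block 13, 0.083 for Eif2b1 block 5, 0.037 for Eif3d block 5, 0.49 for Eif3k block 5, 0.052 for Eif4ebp2 block 5 and 0.026 for Eef1e1 block 5. Without arrays 2 and 4 it gave -0.071 for Eif1a, -0.10 for Eif5b block 39, 0.30 for Eif2s2, 0.022 for Eif2b1, -0.001 for Eif3d block 35 and 0.38 for Eif3k. Median centring gave 0.030 for Eif2s2 block 13, -0.32 for Eif3h block 3 and -0.17 for Eef2 block 13. Normexp gave 0.20 for Eif3k and 0.12 for Eif4enif1.

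The value table gave -0.45, -0.85, -0.019, -0.051 and -0.14 for Eef2 blocks 7, 13, 23, 37 and 45, and -0.41 for Eif5b block 39, -0.93 and -0.16 for Eif3h blocks 3 and 8, -0.27 for Eif5a block 18, -0.24 for Eef1a2 block 25 and -0.13 for Eef1g block 33. It gave 3.81 for Eif2b5 block 7, 0.35 for Eif3k, 2.47 for Eif4enif1, and 0.34 and 1.47 for Eef1e1 blocks 4 and 5.

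Leaving out 1 array, under either normalization, ranged from -0.12 to 0.52 for Eif1a block 36, -0.039 to 0.56 for Eif5b block 39, -0.069 to 0.32 for Eif2s2 block 13, -0.54 to 0.13 for Eif2b1 block 5, -0.55 to 0.086 for Eif3d block 5, -0.022 to 0.39 for Eif3h block 3, -0.10 to 0.62 for Eif3k block 5, -0.0097 to 0.68 for Eif4g3 block 48, -0.56 to 0.11 for Eif4ebp2 block 5 and -0.65 to 0.062 for Eef1e1 block 5. The test of the within-slide ratio against 0 is itself paired by slide. No paired analysis was possible beyond it because a block per slide would leave no replicate.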
